A study of Mus musculus with 4 samples.

Results

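T cells were examined among single cells of mouse liver nonparenchymal preparations, which hold the cells of the liver other than hepatocytes. A cell was taken as a T cell when it held at least 3 UMIs, that is 3 counted molecules, of Cd3e, Cd3d, Cd3g, Trac and Trdc together. It also had to hold at most 2 UMIs of Clec4f (a Kupffer cell gene), at most 1 of Cd79a and Ms4a1 (B cell genes) and under 2 of Ncr1, Klre1 and Klra8 (natural killer, NK, cell genes). The genes Kdr, Ptprb, Stab2, Oit3, Ehd3 and Egfl7 of endothelial cells had to make up under 0.3% of its UMIs. Members were thus selected on measured UMIs of these genes, and their levels are given as a description with no test. The rule found 390 T cells among 25861 cells that had at least 200 detected genes and at most 25% mitochondrial UMIs, out of 27091 deposited cells. CCl4 mouse 1 gave 37 T cells, CCl4 mouse 2 gave 45, corn oil mouse 1 gave 125 and corn oil mouse 2 gave 183.

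The CCl4 group was 2 wild-type male mice given carbon tetrachloride, a hepatotoxin that causes liver fibrosis when dosed repeatedly, diluted 1:9 in corn oil. The corn oil group was 2 wild-type male mice given the oil alone. All 4 mice were 8 to 10 weeks old and received 10 µl per g body weight into the peritoneum 2 times a week for 5 weeks, with the liver taken 48 hours after the last injection. All livers were perfused with pronase and collagenase, so every library held cells that had passed enzymatic digestion, and the strain was not given in the labels. Each mouse was 1 BD Rhapsody library, in which cells are barcoded in microwells, and all 4 carried the same batch label, although the table of CCl4 mouse 1 came from a separate pipeline run per its file header.

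T cells recognise antigen through a receptor made of an alpha and a beta chain or of a gamma and a delta chain, held at the surface with the CD3 proteins encoded by Cd3e, Cd3d and Cd3g. CD4 marks helper and regulatory cells, CD8 marks cells that kill infected or altered targets, and FOXP3 is the transcription factor that defines regulatory T cells, which restrain other T cells. The mouse liver is known for its many innate-like T cells, among them natural killer T (NKT) cells, which develop under the transcription factor PLZF (gene Zbtb16), often carry NK1.1 (gene Klrb1c) and are kept by IL-15 acting through the receptor chain encoded by Il2rb.

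The 5 given markers Cd3e, Cd3d, Trac, Cd8a and Cd4 summed to 2459 and 2359 CPM (UMIs scaled to the same total in each library) in the T cells of the CCl4 mice and to 2635 and 3455 CPM in those of the corn oil mice, against 12.3 to 30.1 CPM in all other cells. Among the genes that led the T cells over the other cells were Cd5 (416-fold), Izumo1r, Trac, Cd247, Cd3d, Bcl11b, Cd3e, Lef1, Trbc1, Trbc2, Lat, Gata3, Thy1 and Cd28, with ratios of mean CPM between 129 and 416. These include parts of the T cell receptor complex, the signalling adaptor Lat, T cell transcription factors and the surface proteins of Cd5, Izumo1r, Thy1 and Cd28. Of them 3 entered the rule, so the ratios describe the selection and were not tested. T cells just inside the rule were few: 11 had exactly 3 receptor UMIs and 12 barcodes with exactly 2 missed it for that reason alone, while 10 T cells had endothelial UMIs of 0.2 to 0.3% and 7 barcodes missed it at 0.3 to 0.4%. Another 124 barcodes with T cell receptor UMIs lay over the endothelial limit, 9 and 7 in the CCl4 mice and 56 and 52 in the corn oil mice.

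The gene comparisons below turn on Klrb1c, Txk (a TEC family kinase of T cells), Foxp3 and Tnfrsf9 (4-1BB, a costimulatory receptor induced on activated and regulatory T cells). Their promoters are shown as RefSeq windows of 300 bases around an annotated start (build GRCm38.p6), each read on its gene's strand, to show which lettered sites stand there. Both strands were searched for letters that DNA binding factors of lymphocytes are known to prefer. The T-box letters TCACAC stood in 14.5% of all 32851 windows of this length. The E-box letters CACCTG stood in 20.2% of them. The AP-1 letters TGACTCA stood in 5.20%. The RUNX letters TGTGGT stood in 16.8%. The letters AGATAA, of the factor family that includes GATA3, stood in 11.2%. Capitals mark a match, and no matches overlapped in the windows shown.
Klrb1c, chr6:128788592-128788891, minus strand, RUNX letters at base 162: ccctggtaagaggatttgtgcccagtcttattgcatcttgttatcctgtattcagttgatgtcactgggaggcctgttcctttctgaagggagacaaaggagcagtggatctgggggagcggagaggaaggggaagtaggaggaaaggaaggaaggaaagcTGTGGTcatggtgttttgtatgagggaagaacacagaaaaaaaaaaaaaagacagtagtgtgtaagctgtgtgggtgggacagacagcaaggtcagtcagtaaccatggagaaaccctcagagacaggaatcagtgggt
Txk, chr5:72752728-72753027, minus strand, the first of 2 entries, T-box letters at base 167: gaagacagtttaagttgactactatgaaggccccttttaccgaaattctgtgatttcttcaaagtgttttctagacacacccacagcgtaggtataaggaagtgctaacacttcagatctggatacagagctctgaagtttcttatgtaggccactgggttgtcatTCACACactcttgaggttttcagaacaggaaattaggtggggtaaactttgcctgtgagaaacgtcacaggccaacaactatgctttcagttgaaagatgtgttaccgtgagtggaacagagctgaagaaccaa
Foxp3, chrX:7579426-7579725, plus strand, the first of 2 entries, no match: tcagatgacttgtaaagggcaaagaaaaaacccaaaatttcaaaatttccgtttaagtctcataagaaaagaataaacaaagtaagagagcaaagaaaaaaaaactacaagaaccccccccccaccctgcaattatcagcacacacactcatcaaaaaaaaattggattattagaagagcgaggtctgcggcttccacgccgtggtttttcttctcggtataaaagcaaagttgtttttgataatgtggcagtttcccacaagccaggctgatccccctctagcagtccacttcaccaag
Tnfrsf9, chr4:150919905-150920204, plus strand, the first of 2 entries, E-box letters of the other strand at base 262: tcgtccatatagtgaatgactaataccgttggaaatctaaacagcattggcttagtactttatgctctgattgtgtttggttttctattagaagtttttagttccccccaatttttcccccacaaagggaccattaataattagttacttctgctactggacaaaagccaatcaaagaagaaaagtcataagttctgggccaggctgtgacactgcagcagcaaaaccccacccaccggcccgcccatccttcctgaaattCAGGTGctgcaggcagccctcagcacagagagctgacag
A match is a match of letters only, and no binding was measured here. By the GENCODE vM21 annotation of GRCm38, the genes span chr6:128778485-128789215 (Klrb1c), chr5:72695978-72752777 (Txk), chrX:7573644-7595245 (Foxp3) and chr4:150914562-150946102 (Tnfrsf9).

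T cells made up a smaller share of the cells in both CCl4 mice than in both corn oil mice. They were 0.603% of 6141 cells in CCl4 mouse 1 (95% exact binomial interval 0.425 to 0.830%) and 0.801% of 5621 cells in CCl4 mouse 2 (0.585 to 1.07%). In the corn oil mice they were 1.82% of 6852 cells (1.52 to 2.17%) and 2.53% of 7247 cells (2.18 to 2.91%). The groups did not overlap, with means of 0.702 ± 0.140% in CCl4 mice and 2.17 ± 0.496% in corn oil mice (SD, n = 2 each). The difference of -1.47 percentage points had a two-sided exact permutation p of 0.333, the smallest that 2 against 2 mice can give. NK cells, found by their own genes, were 17 and 23 cells in CCl4 mice and 18 and 28 in corn oil mice, and B cells 9 and 19 against 13 and 34, so that both overlapped between the groups.

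The depth of the libraries moved with the T cell share. T cells had a median of 5603 and 4596 UMIs in CCl4 mice and of 3049 and 2622 UMIs in corn oil mice. The smallest deposited cell held 2785 and 2702 UMIs in CCl4 mice, against 1949 and 1604 UMIs in corn oil mice, and 0 and 0% of the T cells of CCl4 mice but 40.0 and 75.4% of those of corn oil mice had under 3000 UMIs. Among cells of at least 3000 UMIs, a floor chosen after seeing the data, T cells were 60.4 and 80.3 per 10000 cells in CCl4 mice and 116 and 73.0 in corn oil mice, which overlapped (exact permutation p = 0.667). With the floor set instead at 0.45 of each library's own median UMIs, also chosen after seeing the data, T cells were 60.5 and 80.1 per 10000 cells in CCl4 mice and 182 and 243 in corn oil mice, without overlap (ratio of means 0.330). That relative floor was 3057 and 2716 UMIs in CCl4 mice, under their smallest T cells of 3288 and 3159 UMIs. In corn oil mice it was 2396 and 1998 UMIs. It removed no T cell of CCl4 mice and left values near those without a floor (60.3 and 80.1 against 182 and 253 per 10000). The relative floor therefore hardly tests depth. Above the fixed floor the groups overlapped, and the part of the deposited cell cut in the lower T cell share was not tested. Endothelial cells also differed in number, and of the cells under the same endothelial limit, T cells were 1.4 and 1.7% in CCl4 mice and 13.4 and 16.9% in corn oil mice. The 5-gene receptor sum alone (with no other limit) found 51 and 76 cells in CCl4 mice and 248 and 291 in corn oil mice.

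**Figure D1:**
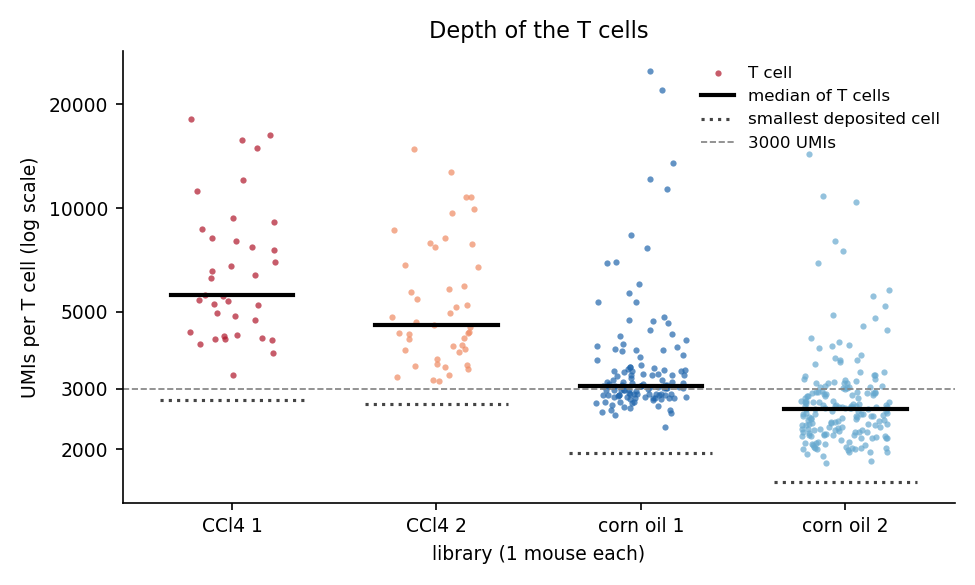
UMIs per T cell on a log scale in each library, with 1 point per cell, the median as a black bar, the smallest deposited cell of the library as a dotted line and 3000 UMIs as a dashed line. The medians were 5603 and 4596 in CCl4 mice and 3049 and 2622 in corn oil mice, and no T cell of a CCl4 mouse lay under 3000.

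The difference in T cell number lay mostly in cells with a UMI of Zbtb16 or Klrb1c, a split chosen after seeing the data. Such cells stood at 6.51 and 14.2 per 10000 filtered cells in CCl4 mice, against 109 and 159 in corn oil mice, a ratio of means of 0.0774. By Klrb1c alone they stood at 3.26 and 8.90 per 10000 in CCl4 mice and at 91.9 and 135 in corn oil mice. T cells with neither gene stood at 53.7 and 65.8 per 10000 in CCl4 mice and at 73.0 and 93.8 in corn oil mice, a ratio of 0.717. Above 3000 UMIs the Zbtb16 or Klrb1c cells still did not overlap, at 6.53 and 14.3 per 10000 in CCl4 mice against 60.5 and 38.9 in corn oil mice, a ratio of 0.209. The cells with neither gene then overlapped, at 53.9 and 66.1 against 55.8 and 34.1 per 10000.

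**Figure D2:**
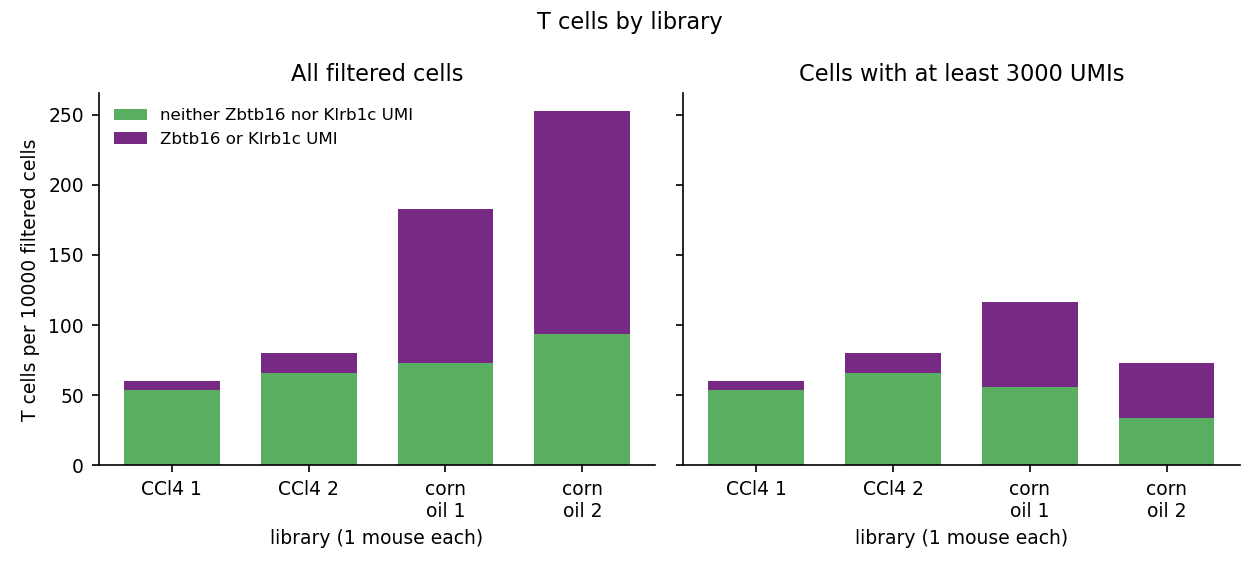
T cells per 10000 filtered cells in each library, as stacked bars of those with a Zbtb16 or Klrb1c UMI (purple) and those with neither (green), for all filtered cells on the left and for cells of at least 3000 UMIs on the right. The purple part is 6.51 and 14.2 in CCl4 mice and 109 and 159 in corn oil mice on the left, and 6.53 and 14.3 against 60.5 and 38.9 on the right.

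Cd8a was found in a larger fraction of T cells in CCl4 mice, while the fractions with Cd4 and Trdc did not separate the groups at equal depth. Cd8a, which encodes the CD8 alpha chain, had a UMI in 13 of 37 and 13 of 45 T cells of CCl4 mice (35.1 and 28.9%) and in 21 of 125 and 26 of 183 of corn oil mice (16.8 and 14.2%), without overlap. With each T cell thinned to 1500 UMIs the fractions were 18.9 and 17.8% in CCl4 mice and 11.2 and 11.5% in corn oil mice, again without overlap, and the exact permutation p was 0.333, the smallest possible. In endothelial cells, which should lack the gene, at most 0.155% of cells had a Cd8a UMI, at medians of 6630 and 5922 UMIs per cell in CCl4 mice and of 5234 and 4324 in corn oil mice.

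Cd4, the coreceptor of helper and regulatory cells, had a UMI in 17 of 37 and 17 of 45 T cells of CCl4 mice (45.9 and 37.8%) and in 41 of 125 and 60 of 183 of corn oil mice (32.8 and 32.8%), against at most 0.484% of endothelial cells. After thinning the fractions overlapped, at 32.4 and 15.6% in CCl4 mice and 19.2 and 19.7% in corn oil mice. Trdc, the constant region of the delta chain, had a UMI in 0 of 37 and 3 of 45 T cells of CCl4 mice and in 6 of 125 and 10 of 183 of corn oil mice (4.80 and 5.46%), so that the groups overlapped. With 3 counts allowed where none was seen, the 0 of 37 allows up to 8.11% of T cells with a Trdc UMI, and no endothelial cell had a Trdc UMI. The intervals and limits cover counting error only. The Trdc level was 0 and 54.1 CPM in CCl4 mice and 74.2 and 86.3 CPM in corn oil mice, and since Trdc entered the rule it was not tested.

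When cells were put in exclusive classes by these genes, the class with none of Cd4, Cd8a, Cd8b1 and Trdc was the one that differed most. It held 7 of 37 and 13 of 45 T cells in CCl4 mice (18.9 and 28.9%) and 60 of 125 and 87 of 183 in corn oil mice (48.0 and 47.5%), which became 40.5 and 57.8% against 64.8 and 61.2% after thinning. The Cd4 class held 17 and 17 cells in CCl4 mice and 39 and 57 in corn oil mice, and the Cd8 class 13 and 12 against 18 and 26. Per 10000 filtered cells the Cd8 class stood at 21.2 and 21.3 in CCl4 mice and at 26.3 and 35.9 in corn oil mice, a ratio of 0.684, the nearest to 1 of the 3 classes. The Trdc class held 0 and 1 cells in CCl4 mice and 5 and 9 in corn oil mice, and cells with several of these genes were 0 and 2 against 3 and 4. Cells with a Zbtb16 or Klrb1c UMI were most of the class with no coreceptor in corn oil mice, at 46 of 60 and 72 of 87 of its cells. In CCl4 mice they were 3 of 7 and 7 of 13.

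Klrb1c, a gate chosen after seeing the data, was the gene whose share of T cells differed most among those gated. It had a UMI in 2 of 37 and 5 of 45 T cells of CCl4 mice (5.41 and 11.1%) and in 63 of 125 and 98 of 183 of corn oil mice (50.4 and 53.6%), against at most 0.116% of endothelial cells. After thinning the shares were 2.70 and 6.67% in CCl4 mice and 31.2 and 42.1% in corn oil mice. The low and high groups stood far apart under both depths, and Klrb1c is also an NK cell gene, found in 78.3 to 94.4% of the NK cells of each library. Zbtb16 was found in 8.11 and 6.67% of T cells of CCl4 mice and in 23.2 and 26.8% of those of corn oil mice, without overlap. Its share in endothelial cells was 48.7 and 2.58% in CCl4 mice and 50.5 and 12.1% in corn oil mice, which went with the replicate number and not with the treatment and exceeded the T cell share in CCl4 mouse 1 and corn oil mouse 1, so that the Zbtb16 share of T cells cannot be told from background in those libraries. Of 84 T cells with Zbtb16, 50 had Klrb1c and 57 had Cxcr6.

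Foxp3 ran the other way. It had a UMI in 9 of 37 and 5 of 45 T cells of CCl4 mice (24.3 and 11.1%) and in 2 of 125 and 3 of 183 of corn oil mice (1.60 and 1.64%), and in at most 0.103% of endothelial cells. After thinning the shares were 18.9 and 8.89% in CCl4 mice and 1.60 and 0.546% in corn oil mice, without overlap, with an exact permutation p of 0.333, the smallest possible. Of the 19 T cells with Foxp3, 16 had Cd4, 14 had Ctla4 (an inhibitory receptor of regulatory and activated cells) and 0 had Zbtb16. Per 10000 filtered cells, Foxp3 T cells stood at 14.7 and 8.90 in CCl4 mice and at 2.92 and 4.14 in corn oil mice, so that they were the more frequent in CCl4 mice although all T cells were the less frequent. With at most 1 myeloid and 1 stromal UMI they stood at 4.89 and 7.12 per 10000 in CCl4 mice and at 2.92 and 4.14 in corn oil mice, a ratio of means of 1.70 in place of 3.34.

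Within the Cd4 class both patterns were present. Foxp3 was found in 7 of 17 and 5 of 17 cells of the class in CCl4 mice and in 2 of 39 and 1 of 57 in corn oil mice, while Zbtb16 or Klrb1c was found in 0 of 17 and 1 of 17 against 22 of 39 and 34 of 57. Within the Cd8 class Foxp3 was found in no cell, and Zbtb16 or Klrb1c in 1 of 13 and 0 of 12 cells of CCl4 mice and in 3 of 18 and 1 of 26 of corn oil mice.

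Of the other receptors, Pdcd1, which encodes the inhibitory receptor PD-1, had a UMI in 9 of 37 and 6 of 45 T cells of CCl4 mice (24.3 and 13.3%) and in 3 of 125 and 1 of 183 of corn oil mice (2.40 and 0.546%). Thinning brought this to 5.41 and 11.1% against 1.60 and 0.546%, still without overlap. Of the 19 T cells with Pdcd1, 9 had Cd4 and 4 had Foxp3. Ctla4, a gate chosen after seeing the data, was found in 40.5 and 22.2% of T cells of CCl4 mice and in 11.2 and 8.20% of corn oil mice.

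Effector genes gave a mixed picture. Ccl5, a chemokine of memory and cytotoxic cells, was found in 59.5 and 40.0% of T cells of CCl4 mice and in 74.4 and 62.8% of corn oil mice, and Gzmb (granzyme B) in 24.3 and 24.4% against 36.0 and 31.7%, and above 3000 UMIs both overlapped. Gzma (granzyme A) had the opposite order, with 13.5 and 11.1% of T cells of CCl4 mice and 6.40 and 1.64% of corn oil mice, but its level of 151 and 179 CPM in CCl4 mice lay between the 384 and 64.7 CPM of the corn oil mice, so no order was read from the share. Cxcr6, a receptor that holds T cells in the liver sinusoids, was found in 59.5 and 28.9% of T cells of CCl4 mice and in 73.6 and 55.7% of corn oil mice, which overlapped until cells were thinned to equal depth (29.7 and 13.3% against 48.0 and 45.4%). Mki67, a gene of dividing cells, was found in 29.7 and 8.89% of T cells of CCl4 mice and in 9.60 and 5.46% of corn oil mice, which overlapped.

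**Figure D3:**
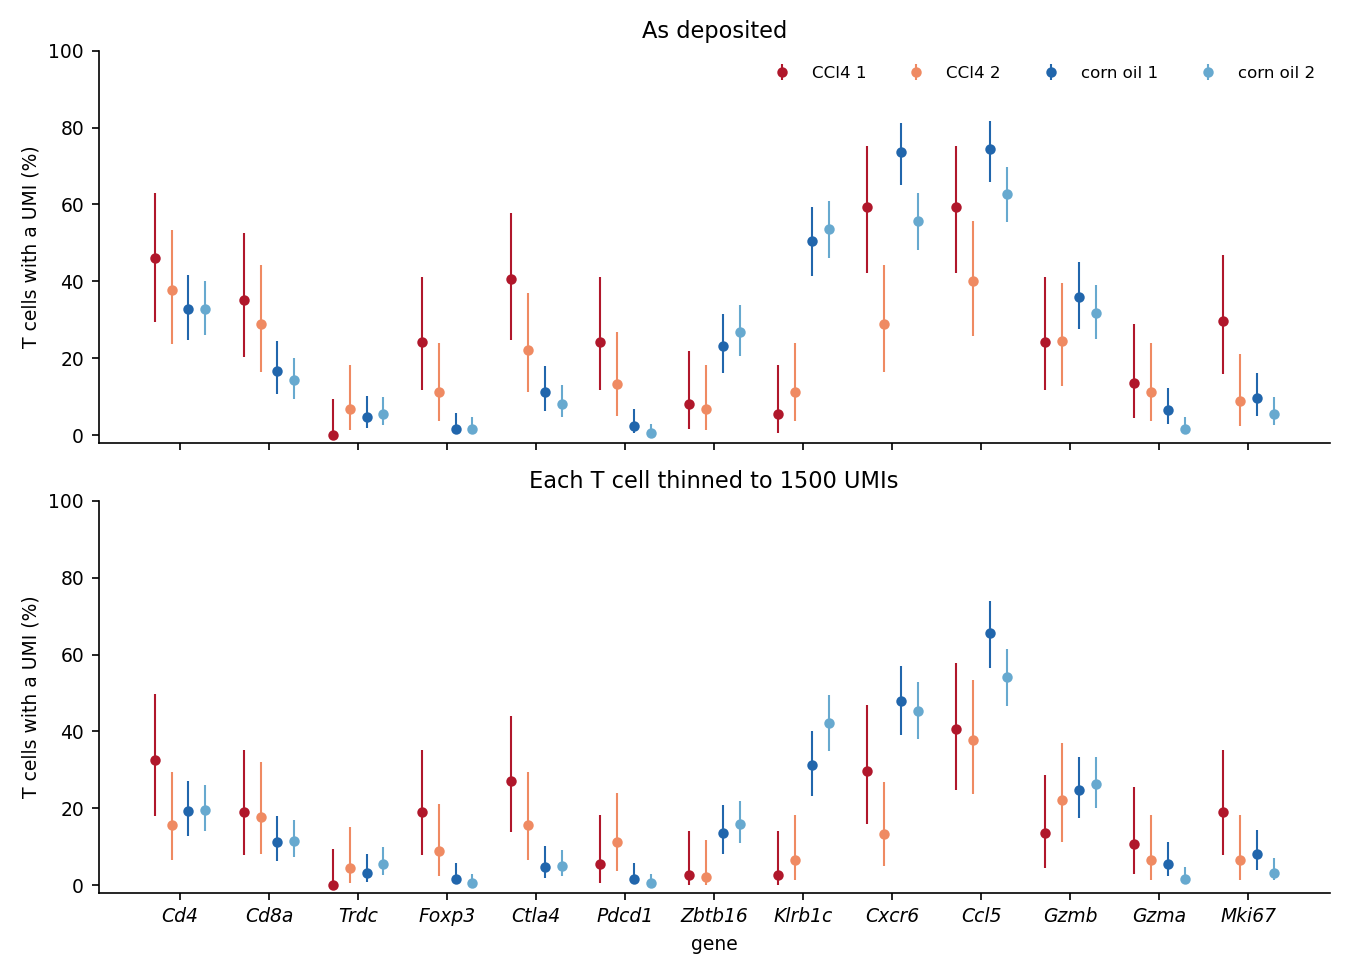
Percent of T cells with at least 1 UMI of each gene in the 4 libraries, as deposited (top) and with each T cell thinned to 1500 UMIs (bottom), with exact 95% binomial intervals as bars. Klrb1c lies at 5.41 and 11.1% in CCl4 mice and at 50.4 and 53.6% in corn oil mice, and Foxp3 at 24.3 and 11.1% against 1.60 and 1.64%.

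RNA of other cell types was present in the T cells and was uneven between the libraries. The 16 monocyte and macrophage markers summed to 3884 and 4942 CPM in T cells of CCl4 mice and to 2088 and 279 CPM in those of corn oil mice, with none of the 16 at 0. The 12 stellate cell and fibroblast markers summed to 985 and 1587 CPM in CCl4 mice and to 4111 and 536 CPM in corn oil mice. T cells with 2 or more myeloid UMIs were 11 and 10 in CCl4 mice and 6 and 12 in corn oil mice (29.7 and 22.2% against 4.80 and 6.56%). Removing T cells with over 1 myeloid or over 1 stromal UMI left macrophage sums of 353 and 359 CPM in CCl4 mice and 140 and 171 CPM in corn oil mice, and stromal sums of 65.7 and 69.2 against 67.2 and 33.9 CPM. The 12 endothelial markers summed to 705 and 205 CPM in CCl4 mice and to 699 and 804 CPM in corn oil mice before that removal, and the 12 NK and ILC1 markers, of which Klra4 was at 0, to 1224 and 1143 against 1452 and 968 CPM. The 12 B cell markers summed to 127 and 232 CPM in CCl4 mice and 161 and 184 CPM in corn oil mice, with Ms4a1, Fcmr, Ebf1 and Cr2 at 0. Of the 390 T cells, 6 shared a cell index with a cell of another library and 0 with another T cell.

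**Figure D4:**
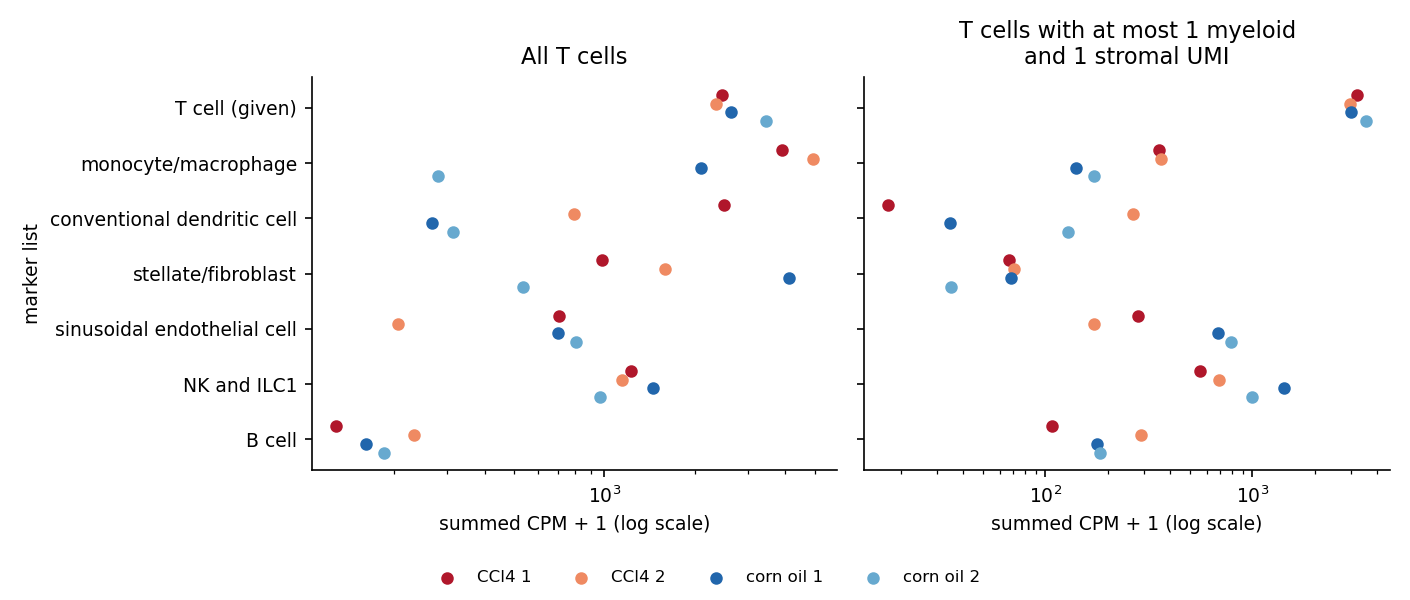
Summed CPM (plus 1, log scale) of 7 marker lists in the T cells of each library, for all T cells (left) and for T cells with at most 1 myeloid and 1 stromal UMI (right). The monocyte/macrophage sum is 3884 and 4942 CPM in CCl4 mice and 2088 and 279 CPM in corn oil mice on the left, and 353 and 359 against 140 and 171 CPM on the right.

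Gene levels were then compared on UMIs summed over the T cells of each mouse with edgeR's quasi-likelihood test and Benjamini-Hochberg adjustment over all genes. Over all T cells, 0 of 5827 genes passed an adjusted p of 0.05 (0% higher and 0% lower, lowest adjusted p = 0.0873 by edgeR), while 767 genes (13.2%) had an unadjusted p under 0.05, of which 378 (6.49%) were higher and 389 (6.68%) lower. On the same sums DESeq2 passed 31 genes as higher (0.532%) and 25 as lower (0.429%), and limma-voom 1 as higher (0.0172%) and 1 as lower (0.0172%). Among T cells with at most 1 myeloid UMI, edgeR passed 40 of 4949 genes, 18 higher (0.364%) and 22 lower (0.445%) in CCl4 mice. With at most 1 stromal UMI as well, a step added after seeing the data, 56 of 4560 genes passed, 18 higher (0.395%) and 38 lower (0.833%). Leaving out 1 mouse of all T cells passed 1 gene without CCl4 mouse 1, 48 without CCl4 mouse 2, 314 without corn oil mouse 1 and 67 without corn oil mouse 2. The genes that passed the same way in DESeq2 and in both of these cleaned sets numbered 23. Higher were Foxp3, Tnfrsf9, Mif, Odc1, Ybx3 and Ctss. Lower were Klrb1c, Il2rb, Txk, Fasl, Itga1, Lyst, Dusp2, Bcl2, Fgl2, Gimap3, Gm2682, Junb, Pde3b, Pik3r1, Tcrg-C2, Trip4 and Zfp36l2. These fits used the same T cells or parts of them, so their shared genes are not independent results. Without the endothelial limit edgeR passed 35 genes. Of these, 18 passed the same way in DESeq2, 9 with at most 1 myeloid UMI and 13 with at most 1 myeloid and 1 stromal UMI. Levels below are TMM-scaled CPM, and fold changes are log2, CCl4 over corn oil.

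Klrb1c, Il2rb, Txk, Fasl and Itga1 stood lower in CCl4 mice. Klrb1c had 27.8 and 24.9 CPM in T cells of CCl4 mice and 281 and 471 CPM in those of corn oil mice (log2 -3.82, SE 0.39, edgeR adjusted p = 0.0873 over all T cells). Both CCl4 mice lay far under both corn oil mice, and among T cells with at most 1 myeloid UMI Klrb1c fell by 3.81 (edgeR adjusted p = 0.0245). Il2rb, the shared receptor chain for IL-2 and IL-15, had 783 and 740 CPM in CCl4 mice and 2363 and 2217 CPM in corn oil mice (log2 -1.59, SE 0.17), and among T cells with at most 1 myeloid UMI it fell by 1.54 (edgeR adjusted p = 0.0245). Txk had 27.8 and 41.6 CPM in CCl4 mice and 196 and 222 CPM in corn oil mice (log2 -2.58), and Fasl, the ligand of the death receptor Fas, 47.7 and 33.3 CPM against 188 and 228 CPM (log2 -2.35). Itga1, an integrin chain of tissue-resident lymphocytes, had 39.7 and 20.8 CPM in CCl4 mice and 140 and 198 CPM in corn oil mice. No value of a CCl4 mouse overlapped a corn oil mouse for any of these genes, and edgeR passed each of them among T cells with at most 1 myeloid UMI. The NK and ILC1 marker sum, whose members Ncr1, Klre1 and Klra8 entered the rule, overlapped between the groups over all T cells, as given above. With at most 1 myeloid and 1 stromal UMI it was 558 and 686 CPM in CCl4 mice. In corn oil mice it was then 1414 and 990 CPM, without overlap. Over all T cells its member Fcer1g, a signalling adaptor also of myeloid cells, had 449 and 362 CPM in CCl4 mice. In corn oil mice Fcer1g had 196 and 53.0 CPM (edgeR adjusted p = 0.268).

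Signalling and survival genes lower in CCl4 mice included Dusp2, a phosphatase of activated lymphocytes, with 294 and 520 CPM in CCl4 mice and 1566 and 1772 CPM in corn oil mice (log2 -2.04). Bcl2, an inhibitor of apoptosis, had 115 and 220 CPM in CCl4 mice and 602 and 581 CPM in corn oil mice (log2 -1.82). Pde3b, a phosphodiesterase, had 103 and 91.5 CPM in CCl4 mice and 351 and 337 CPM in corn oil mice, and Gimap3, a GTPase of lymphocytes, 799 and 906 CPM against 2064 and 2182 CPM. Tcrg-C2, a gamma chain constant region, had 51.7 and 95.6 CPM in CCl4 mice and 260 and 379 CPM in corn oil mice (log2 -2.12), but its reads are shared with the near-identical Tcrg-C1, so the assignment between the copies is uncertain. These genes too did not overlap between the groups.

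Of the genes higher in CCl4 mice, Tnfrsf9 had 91.4 and 108 CPM in CCl4 mice and 10.9 and 3.92 CPM in corn oil mice (log2 3.72, SE 0.52), and among T cells with at most 1 myeloid UMI it rose by 3.95 (edgeR adjusted p = 0.0289). Foxp3 had 242 and 91.5 CPM in CCl4 mice and 24.0 and 7.85 CPM in corn oil mice (log2 3.39, SE 0.64), and among those cells it rose by 3.43 (edgeR adjusted p = 0.0383). Foxp3 and Tnfrsf9 rested on 11 and 4 UMIs and on 5 and 2 UMIs in the corn oil mice. Mif, a secreted cytokine, had 223 and 345 CPM in CCl4 mice and 80.7 and 88.3 CPM in corn oil mice, and Odc1, the first enzyme of polyamine synthesis, 350 and 349 CPM against 116 and 143 CPM. Ybx3, an RNA and DNA binding protein, had 660 and 532 CPM in CCl4 mice and 212 and 206 CPM in corn oil mice. Pdcd1 had 67.6 and 91.5 CPM in CCl4 mice and 10.9 and 1.96 CPM in corn oil mice and did not pass in edgeR (adjusted p = 0.105 over all T cells, and 0.0576 with at most 1 myeloid UMI). Ctss, a cathepsin that is also a macrophage marker, had 842 and 1193 CPM in CCl4 mice and 286 and 94.2 CPM in corn oil mice, and macrophage marker sums moved with it.

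Over all T cells the smallest p in the higher direction belonged to Ifitm3, C3ar1, Myadm, Mpeg1 and Ms4a6c, none of which passed in edgeR. Ifitm3, an interferon-induced membrane protein, had 600 and 524 CPM in CCl4 mice and 113 and 62.8 CPM in corn oil mice (log2 2.67), and with at most 1 myeloid and 1 stromal UMI its log2 difference was -0.26. With at most 1 myeloid UMI, edgeR passed Tagln, Thbs1, Sparcl1, Acta2, Serpina3n, Col4a1, Myadm and Steap4 as higher. Tagln and Acta2 encode smooth muscle proteins of activated stellate cells and Col4a1 a basement membrane collagen. Tagln had 39 UMIs in CCl4 mice and 0 in corn oil mice, which is at least 34.6-fold higher with 3 UMIs allowed over both corn oil mice. Thbs1 had 101 UMIs against 1, a ratio of 269 with a counting interval of 47.2 to 10726. The share of T cells with 2 or more stromal UMIs was 21.6 and 13.3% in CCl4 mice and 7.20 and 3.83% in corn oil mice. With at most 1 myeloid and 1 stromal UMI, none of Tagln, Thbs1, Sparcl1, Acta2, Serpina3n, Col4a1, Myadm and Steap4 was among the 4560 genes tested. No difference can thus be given for them in those cells, and the part of stromal RNA in them was not tested further. Lower among T cells with at most 1 myeloid UMI were Aqp9, with 1 UMI against 84 (ratio 0.0317, counting interval 0.000793 to 0.181), Klra9, an NK receptor, with 1 against 69, Lpar6, Trip4, Lyst and Kctd12.

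**Figure D5:**
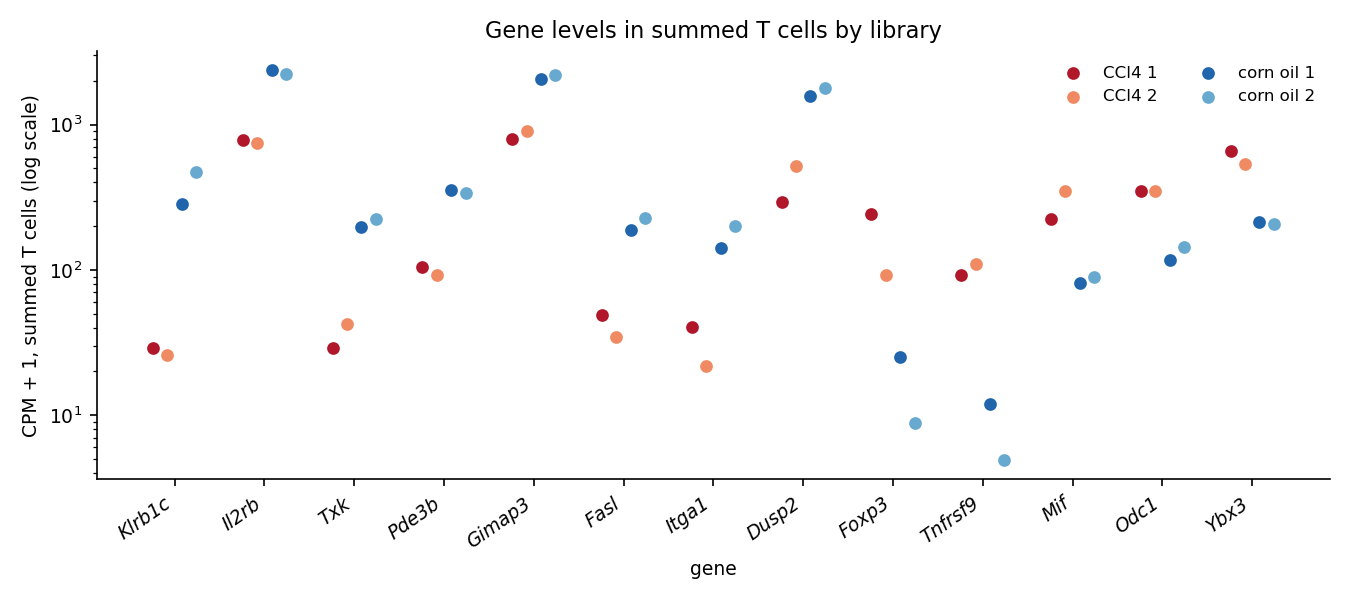
Level of 13 genes in the summed T cells of each library, as TMM-scaled CPM plus 1 on a log scale. The 8 genes from Klrb1c to Dusp2 are lower in both CCl4 libraries than in both corn oil libraries, and the 5 from Foxp3 to Ybx3 are higher.

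The cells without a Zbtb16 or Klrb1c UMI were also compared on their own, and there 0 of 3943 genes passed in edgeR (283 at an unadjusted p under 0.05, lowest adjusted p = 0.0516). In these cells the log2 difference was -0.86 for Il2rb, -2.15 for Txk, -1.21 for Fasl, 2.40 for Foxp3 and 3.05 for Tnfrsf9. Each kept the sign it had over all T cells. For Il2rb and Fasl the difference was smaller than the -1.59 and -2.35 over all T cells. Among T cells of at least 3000 UMIs, 0 of 4662 genes passed in edgeR (7.36% at an unadjusted p under 0.05, lowest adjusted p = 0.290). The log2 difference was then -3.22 for Klrb1c, -1.10 for Il2rb, -2.05 for Txk, -1.51 for Fasl, 3.10 for Foxp3 and 3.60 for Tnfrsf9. Each was smaller in size than over all T cells. That floor removed T cells of corn oil mice only, and the part of depth was not tested.

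Gene lists were read as the number of tested members whose CCl4 values lay wholly above or below the corn oil values, against 22.1% of all tested genes above and 23.1% below, with genes of the rule left out. Of 12 tested regulatory T cell genes, 8 lay above and 0 below, with a median log2 difference of 1.30 against 0.01 over all genes: Foxp3, Tnfrsf9, Tnfrsf4 (OX40), Ctla4, Ikzf2 (Helios), Capg, Lrrc32 and Nrp1. Genes with too few UMIs were left out, and 12 of the 20 listed were tested. Foxp3, Tnfrsf9 and Tnfrsf4, low in both corn oil mice, could be tested only through their UMIs in CCl4 mice. They thus could not lie below, and the count describes the tested members only. With at most 1 myeloid UMI, 3 of 11 passed as higher in edgeR, namely Foxp3, Tnfrsf9 and Ikzf2. Ikzf2 had 282 and 274 CPM in CCl4 mice and 109 and 112 CPM in corn oil mice. Tnfrsf4 had 135 and 37.4 CPM against 13.1 and 5.89 CPM and did not pass. Il2ra, Tnfrsf18, Izumo1r and Icos overlapped.

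Of 15 NKT and innate-like genes, 2 lay above and 8 below (median -0.38). Klrb1c (7 and 6 UMIs in CCl4 mice) and Zbtb16 (5 and 10) passed the filter on low counts only with UMIs of corn oil mice. They thus could not lie above, and the count describes the tested members only. The median was -1.13 without CCl4 mouse 1, -0.65 without CCl4 mouse 2 and -0.77 with at most 1 myeloid and 1 stromal UMI, and with at most 1 myeloid UMI Klrb1c and Il2rb passed as lower. Zbtb16 had 19.9 and 41.6 CPM in CCl4 mice and 87.3 and 157 CPM in corn oil mice (log2 -1.99, edgeR adjusted p = 0.182), and Cxcr6 215 and 125 CPM against 541 and 445 CPM (log2 -1.53). Id3, a transcriptional inhibitor, was one of the 2 above, at 2.28. Of 22 cytotoxic effector genes, 5 lay above and 12 below (median -0.52, and -0.28 without corn oil mouse 1), with Fasl the member that passed among T cells with at most 1 myeloid UMI. Of 13 tissue residency genes, 3 lay above and 5 below (median -0.16). That median was -0.97 with at most 1 myeloid and 1 stromal UMI, -0.34 without CCl4 mouse 1, -0.33 without corn oil mouse 1 and -0.01 without corn oil mouse 2. Itga1 and Dusp2 passed as lower among T cells with at most 1 myeloid UMI. Over all T cells Itga1, at 20.8 CPM in CCl4 mouse 2, passed the filter on low counts only with UMIs of corn oil mice and could not lie above.

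Of 18 genes of activated T cell metabolism, 11 lay above and 3 below (median 0.53, and 0.31 without corn oil mouse 2), among them Odc1 and the glycolytic enzymes Pkm (log2 1.03), Ldha (0.99) and Gapdh (0.74). Odc1 passed in edgeR among T cells with at most 1 myeloid UMI, the 1 member to do so there, and in those cells 9 of 17 lay above and 2 below, against 22.7% and 23.4% of all genes there. Of 20 T cell receptor and signalling genes, 2 lay above and 13 below (median -0.33). That median was -0.13 with at most 1 myeloid and 1 stromal UMI and -0.54 without CCl4 mouse 1, and with at most 1 myeloid UMI 7 of 20 lay below. Myeloid marker sums, given above, were higher in T cells of CCl4 mice, where more of these genes lay below than above. The part of myeloid RNA in this was not tested further. Of 18 naive and recirculating genes, 2 lay above and 8 below (median -0.29), a median that was 0.03 with at most 1 myeloid UMI, -0.98 without CCl4 mouse 2, -0.71 without corn oil mouse 1, -0.13 without CCl4 mouse 1 and 0.05 without corn oil mouse 2. Bcl2 and Txk passed as lower with at most 1 myeloid UMI. Over all T cells Txk, at 7 UMIs in CCl4 mouse 1, passed the filter on low counts only with UMIs of corn oil mice and could not lie above. Of 18 cell cycle genes 0 lay above and 0 below (median 0.55, and -1.28 without CCl4 mouse 1, 1.33 without CCl4 mouse 2 and 0.21 without corn oil mouse 2).

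Interferon response genes had 9 above and 7 below of 23 (median -0.08, and from -0.13 to 0.14 when a mouse was left out). The most expressed members were B2m (log2 -0.12), Ly6e (-0.23) and Ly6a (0.24). Rtp4 (1.77) and Oasl2 (1.68) were higher, which the list as a whole was not. Immediate early and dissociation stress genes had 6 above and 6 below of 25 (median 0.35). Their median was -0.34 with at most 1 myeloid and 1 stromal UMI, -0.42 without CCl4 mouse 1 and 0.02 without corn oil mouse 2, and Junb passed as lower with at most 1 myeloid UMI. Chemokine receptor and homing genes had 3 above and 7 below of 18, helper programmes 2 and 6 of 11, checkpoint genes 2 and 4 of 10, cytokines 1 and 6 of 13, gamma-delta and type 17 genes 1 and 3 of 8, and clock and glucocorticoid response genes 2 and 3 of 8. Of the cytokines, Mif passed as higher and Fasl as lower with at most 1 myeloid UMI.

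Within the Cd4 class, tested on 17 and 17 cells of CCl4 mice against 39 and 57 of corn oil mice with a cell minimum lowered to 10 after seeing the counts, edgeR passed 0 of 2624 genes as higher (0%) and 9 as lower (0.343%), each at an adjusted p of 0.0470. Klrb1c had 0 and 0 UMIs in CCl4 mice and 35 and 80 in corn oil mice, at least 24.4-fold lower with 3 UMIs allowed over both CCl4 mice. Itga1 had 0 and 0 UMIs against 23 and 31, at least 11.5-fold lower. Cd160, a receptor of innate-like and cytotoxic cells, had 0 and 1 UMIs against 30 and 33, and Tcrg-C1 0 and 1 against 30 and 31. Bcl2 fell by 3.34, Lyst by 2.81, Pde3b by 2.68, Dusp2 by 2.16 and Il2rb by 1.69 on the log2 scale. Odc1, at 634 and 547 CPM in CCl4 mice and 46.3 and 132 CPM in corn oil mice, had the smallest p in the higher direction and did not pass (edgeR adjusted p = 0.0781). Leaving out CCl4 mouse 1, CCl4 mouse 2, corn oil mouse 1 or corn oil mouse 2 passed 77, 146, 102 or 58 genes.

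Within the Cd8 class, on 13 and 12 cells of CCl4 mice against 18 and 26 of corn oil mice, edgeR passed 24 of 1689 genes as higher (1.42%) and 4 as lower (0.237%). The 10 largest increases were Serpina3n, Slpi, C4b, Cxcl2, Gas1, Alcam, Cyr61, Serping1, Col1a2 and Tgm2, among which Col1a2 is a collagen of fibroblasts. Slpi had 254 and 9 UMIs in CCl4 mice and 0 and 1 in corn oil mice, so CCl4 mouse 1 held nearly all of it, and Col1a2 had 17 and 116 against 3 and 0. Over all T cells, the share with 2 or more stromal UMIs was higher in CCl4 mice, as given above. The stromal marker sum over all T cells was instead highest in corn oil mouse 1 (4111 CPM). The part of stromal RNA in these genes of the Cd8 class was not tested. The 4 that fell were Il7r, the IL-7 receptor chain, with 237 and 364 CPM in CCl4 mice and 986 and 942 CPM in corn oil mice (log2 -1.62, edgeR adjusted p = 0.0408), Txnip (-1.63), Zfp36l2 (-1.29) and Ikzf2, with 0 and 2 UMIs against 10 and 33. Ikzf2 was thus higher in CCl4 mice among all T cells with at most 1 myeloid UMI and lower in the Cd8 class, and the difference between the classes in this change was not tested. Leaving out CCl4 mouse 1, CCl4 mouse 2, corn oil mouse 1 or corn oil mouse 2 passed 67, 63, 67 or 43 genes, and DESeq2 passed 8.

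T cells differed among themselves along the coreceptor classes. The Cd8 class was set against the Cd4 class of the same mouse, and edgeR with the mouse as a block passed 17 of 1835 genes as higher (0.926%) and 25 as lower (1.36%) in the Cd8 class, counting Cd8a, Cd8b1 and Cd4, which set the classes. Klrd1, which encodes the NK receptor chain CD94, averaged 332 ± 85.8 CPM in the Cd8 class and 60.3 ± 58.8 CPM in the Cd4 class (SD, n = 4 libraries each) and was higher in the Cd8 class in 4 of 4 (log2 2.53, edgeR adjusted p = 0.00716). Cd7 (1.52), Actn1 (1.61) and Ccl5 (1.07) were higher too, as were Taf1d, Hmgn1, Mcm6, Rps20, Eef1b2 and Rpl28, each in 4 of 4 libraries. Lower in the Cd8 class were Il2ra, the high-affinity IL-2 receptor chain, at 10.1 ± 20.2 CPM against 265 ± 210 CPM (log2 -4.74), and Ccr2, a chemokine receptor of migrating cells, at 20.8 ± 8.13 CPM against 470 ± 221 CPM (log2 -4.41). P2rx7, S100a4 (-2.64), Tmem64 and Ly6a (-2.33) were lower in 4 of 4 libraries, and Maf (-2.51) in 3 of 4. The count of 42 became 4 without CCl4 mouse 1, 74 without CCl4 mouse 2, 7 without corn oil mouse 1 and 21 without corn oil mouse 2, and of the 20 genes named here Ccr2 was the 1 that passed each time. The MHC class II genes H2-Eb1, H2-Ab1 and H2-Aa were also lower in the Cd8 class. These are genes of antigen presenting cells, and their Cd4 class levels were highest in CCl4 mouse 1 (871, 810 and 1285 CPM). The dendritic cell marker sum was also highest there (2504 CPM, against 791 CPM in CCl4 mouse 2 and 266 and 313 CPM in corn oil mice). That list holds these same genes, so its sum moves with them. In T cells of CCl4 mouse 1, H2-Eb1, H2-Ab1, H2-Aa and Cd74 stood at 478, 608, 709 and 646 CPM. The other members of the list stood there between 0 CPM (Xcr1, Clec9a, Cd209a and Flt3) and 44.8 CPM (Itgax). In T cells with at most 1 myeloid and 1 stromal UMI, the sum of the list was 16.4 CPM in CCl4 mouse 1 and 264 CPM in CCl4 mouse 2. In corn oil mice it was then 33.6 and 127 CPM. The part of RNA of other cells in the class II levels of the Cd4 class was not tested.

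The CCl4 difference in T cells was set against that in NK cells of the same libraries, with a cell minimum lowered to 15 after seeing the counts. In edgeR with the mouse as a block, 5 of 4416 genes passed, 2 in the positive direction (0.0453%) and 3 in the negative (0.0679%). Levels here were scaled over both cell types together. Klrb1c averaged 24.6 CPM in T cells of CCl4 mice and 355 CPM in those of corn oil mice, against 498 and 1340 CPM in NK cells, so that its difference was larger in T cells (log2 ratio -2.41, edgeR adjusted p = 0.0362). Il2rb averaged 711 CPM in T cells of CCl4 mice and 2153 CPM in those of corn oil mice, against 2408 and 3219 CPM in NK cells (log2 ratio -1.23, edgeR adjusted p = 0.0268). Ccl5 averaged 1203 and 1679 CPM in T cells, against 2594 CPM in NK cells of CCl4 mice and 9184 CPM in NK cells of corn oil mice, so that the difference was larger in NK cells. None of the 5 passed with DESeq2 (adjusted p = 0.99994 for each) or in edgeR without the mouse block (adjusted p = 0.428 to 0.853).

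Receptor segments were read too thinly for usage to be compared. Tcrg constant region genes had 24 and 55 UMIs in T cells of CCl4 mice and 282 and 428 in those of corn oil mice, and Trdc 0 and 13 against 34 and 44. Traj18, the joining segment of the invariant NKT receptor, had 1 and 0 UMIs in CCl4 mice and 2 and 3 in corn oil mice, and Trbv13-2 had 1 and 0 against 1 and 0. The T cells with Zbtb16 or Klrb1c were therefore not assigned to a lineage by their receptor.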

How the data were processed

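Per the submitters' processing notes, the authors ran the BD Rhapsody Analysis Pipeline 1.9.1 with GENCODE vM19 on GRCm38. Per the file headers, the deposited values are UMI counts per gene and cell, which their naming gives as molecules after the pipeline's error correction, and per the labels about 10000 viable cells were loaded. The smallest deposited cell differed between the libraries, which limits shares of cells. The 4 libraries held 53784701 and 41771857 UMIs (CCl4) and 47163711 and 47515746 UMIs (corn oil) in filtered cells, and their T cells 268007 and 259013 UMIs (CCl4) and 491852 and 537195 UMIs (corn oil).

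The members and gene lists were chosen with earlier results of these data known. Each mouse was 1 replicate. Shares were compared by exact two-sided permutation over the 6 splits, with exact (Clopper-Pearson) 95% intervals. UMIs were summed per library and tested with edgeR 4.0.16 (R 4.3.3), filterByExpr, TMM and Benjamini-Hochberg adjustment. DESeq2 1.42.0 and limma 3.58.1 were alternatives. On simulated counts for T cells over 5818 genes, 8.0% of 200 genes changed 2-fold and, over 5777 genes, 67.5% of 200 changed 4-fold were recovered. Genes were named by a fixed rule: up to 10 with the largest change each way among those past the threshold, or those of smallest p where under 5 passed, and from each list those past the threshold and its most expressed members. Other genes, and the gates on Klrb1c, Ctla4 and Zbtb16 or Klrb1c, were chosen after their values were seen. Classes and NK cells missed the intended minimum of 20 cells in some libraries, so minimums of 10 and 15 were used. The Trdc class and B cells had too few cells and were not tested. Doublets were scored and not removed: 1 T cell lay in the top 5% of scores. Results for some genes are not reported here.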

Additional observations from a re-analysis of the deposited data

Results flagged for a closer look

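The CCl4 difference was unlike in T cells and in NK cells, by an interaction term in edgeR, for 5 of 4416 genes. Values are mean CPM of T cells in CCl4 and corn oil mice, then of NK cells in CCl4 and corn oil mice, and the log2 ratio of the T cell effect over the NK cell effect. Klrb1c had 24.6 and 355 CPM in T cells and 498 and 1340 CPM in NK cells, a log2 ratio of -2.41 (edgeR adjusted p = 0.0362). Il2rb had 711 and 2153 CPM in T cells and 2408 and 3219 CPM in NK cells, a log2 ratio of -1.23 (edgeR adjusted p = 0.0268). Ccl5 had 1203 and 1679 CPM in T cells and 2594 and 9184 CPM in NK cells, a log2 ratio of 1.37 (edgeR adjusted p = 0.00471). Tyrobp, a signalling adaptor of NK and myeloid cells, had 277 and 76.1 CPM in T cells and 845 and 1227 CPM in NK cells, a log2 ratio of 2.49 (edgeR adjusted p = 0.0362). Plac8, a gene of immature myeloid and NK cells, had 406 and 212 CPM in T cells and 408 and 6.74 CPM in NK cells, a log2 ratio of -4.69 (edgeR adjusted p = 0.0362). None of the 5 passed with DESeq2 (adjusted p = 0.99994 for each) or in edgeR without the mouse block (0.428 to 0.853). A fit without 1 mouse has a group of 1 mouse, which is taken to vary like the other group, with the spread pooled over genes, so such fits say little of stability. In them Klrb1c did not pass without CCl4 mouse 2 (edgeR adjusted p = 0.0895) or corn oil mouse 2 (0.123), Il2rb without corn oil mouse 1 (0.0908) and Tyrobp without corn oil mouse 2 (0.290). T cells with 2 or more myeloid UMIs were 29.7 and 22.2% in CCl4 mice and 4.80 and 6.56% in corn oil mice, and NK cells 17.6 and 43.5% against 11.1 and 0%, and their part in Tyrobp and Plac8 was not tested.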

How the results depend on the processing

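The difference in T cell share was -1.47 points and kept its direction under every alternative run, from -1.82 to -1.12 when each mouse was left out, and with the replicate block it was -1.47 by construction. It was -0.243 points above 3000 UMIs, where the groups overlapped. The Trdc fraction had the other sign without the endothelial limit (3.03 points), above 3000 UMIs (0.222) and without a mouse in turn (-5.13 to 1.53). The class with several coreceptors, 9 cells in all, had the other sign without the endothelial limit (2.29), with at least 5 receptor UMIs (0.440), with at most 15% mitochondrial UMIs (0.134), with at most 1 myeloid UMI (0.427), with at most 1 myeloid and 1 stromal UMI (0.972), above 3000 UMIs (0.444), above 0.45 of the library median (0.155), after thinning (0.565) and without a mouse in turn (-2.29 to 2.15). The number of genes past the threshold over all T cells was 0, against 56 with DESeq2, 422 with no filter on low counts, 2 with limma-voom, 131 with the replicate block, 35 without the endothelial limit, 40 with at most 1 myeloid UMI, 56 with at most 1 myeloid and 1 stromal UMI, and 1 to 314 when a mouse was left out (1 without CCl4 mouse 1, 48 without CCl4 mouse 2, 314 without corn oil mouse 1, 67 without corn oil mouse 2). In the Cd4 class it was 9, against 18 (DESeq2), 139 (no filter), 184 (replicate block) and 58 to 146 when a mouse was left out. In the Cd8 class it was 28, against 8 (DESeq2), 144 (no filter), 35 (replicate block) and 43 to 67. Between the classes it was 42, against 25 (DESeq2), 159 (no filter), 12 (no mouse block), 17 (no endothelial limit) and 4 to 74, the 4 without CCl4 mouse 1. Between T and NK cells it was 5, against 0 (DESeq2), 0 (no mouse block), 14 (no filter) and 9 to 20. Over all T cells of at least 3000 UMIs it was 0 of 4662 genes. The cause of these changes was not tested. Ifitm3 reversed to -0.26 with at most 1 myeloid and 1 stromal UMI. Of the other values of named genes, 570 kept their direction and side of the threshold, 209 came past it and 120 no longer passed it. With a mouse left out, a group has 1 mouse, taken to vary like the other group. T cell sums of libraries that share a replicate number did not deviate together (correlation 0.0943 over 3000 genes) and no label ties the numbers, but the Zbtb16 share of endothelial cells did go with the number. The depth of 37 and 45 T cells in CCl4 mice limits every value: at this size few genes changed 2-fold would be found.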

Other observations

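Zbtb16 in endothelial cells went with the replicate number and not with the treatment, with a UMI in 1010 of 2075 and 50 of 1937 of them in CCl4 mice (48.7 and 2.58%) and in 2606 of 5161 and 660 of 5476 in corn oil mice (50.5 and 12.1%). In NK cells Ctla4 had a UMI in 7 of 17 and 4 of 23 cells of CCl4 mice (41.2 and 17.4%) and in 0 of 18 and 2 of 28 of corn oil mice (0 and 7.14%), counts that were looked up after the T cell values were seen. Foxp3 had a UMI in 0 of 17 and 0 of 23 NK cells of CCl4 mice and in 0 of 18 and 0 of 28 of corn oil mice.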
